A study of Mus musculus with 18 samples.

Results

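Long intergenic noncoding RNA (lincRNA) genes that were expressed in mouse pre-osteoblasts are described here, with their response to EPZ6438, an inhibitor of EZH2. EZH2 is the enzyme of Polycomb repressive complex 2 that methylates lysine 27 of histone H3. A gene was taken as a member when its biotype in the deposited expression table was lincRNA and its level averaged at least 1 RPKM over all 6 RNA libraries. RPKM is reads per kilobase of gene and per 1000000 reads in genes. The members were thus chosen by their level over both arms, which is given as a description, and not by the difference between arms. H19 and Meg3 were to be left out by name, but H19 averaged 0.729 RPKM and Meg3 had no read, so neither would have been a member. Of 2998 lincRNA genes in the table, 129 were members (4.30%), among 43346 genes in all. The other 2869 lincRNA genes lay below the level, and 2004 of the lincRNA genes had no read in any library.

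The 3 EPZ6438 RNA samples came from cells given 2.5 µM EPZ6438, and the 3 DMSO samples from cells given 0.25% DMSO. The labels do not say whether the EPZ6438 medium also held DMSO. All were MC3T3-E1 subclone 4 cells at passage 9, a C57BL/6 line of calvarial pre-osteoblasts, after 3 days in osteogenic medium. This is 1 subclone of 1 line, and no label says whether replicates were grown apart, so a p-value here covers the spread among these samples, which may be technical. Both arms also gave chromatin for H3K27me3, the Polycomb mark, and H3K4me3, a mark of active or poised promoters, with 2 samples per mark and arm and inputs of the same arm. The deposited peaks are 1 merged list per mark and arm, so no peak count here has a replicate error.

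A lincRNA gene is transcribed, spliced and usually polyadenylated like an mRNA gene but carries no recognised reading frame. Some lincRNAs stay in the nucleus and act there, some are transcribed away from the promoter of a coding gene, and some are hosts whose introns hold small nucleolar RNAs (snoRNAs) or whose transcript holds microRNAs (miRNAs). In bone-forming cells a few have been tied to differentiation, while the function of most is unknown.

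The libraries held 18807156 to 25365513 reads in genes. The members together took 0.228% to 0.252% of those reads in EPZ6438 libraries and 0.240% to 0.253% in DMSO libraries. Of 10 osteoblast markers, 7 rose and 1 fell with EPZ6438, and their summed level was 5603 to 7458 RPKM in EPZ6438 libraries against 3460 to 6043 RPKM in DMSO libraries. Col1a1 and Col1a2, the collagen I genes, made up most of that sum, overlapped between arms and were not called (limma adjusted p = 0.410 and 0.551). The summed blood, endothelial, adipocyte, epithelial and skeletal muscle markers each reached at most 1.86 RPKM in a library. In all 6 libraries 2 blood, 2 endothelial, 3 epithelial and 2 skeletal muscle markers were listed at 0. The skeletal muscle sum was 1.07 to 1.86 RPKM in EPZ6438 libraries and 0.705 to 0.902 RPKM in DMSO libraries, and the sums of the other 4 lists overlapped. Acta1 made up most of the skeletal muscle sum and was not called (limma adjusted p = 0.140). It had 0.975 to 1.675 RPKM in EPZ6438 libraries and 0.630 to 0.785 RPKM in DMSO libraries. In bulk RNA, fewer cells of a type and less RNA per cell cannot be told apart, and the part of these markers in the changes below was not tested.

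Most members were low. The median member averaged 2.43 RPKM, against 10.5 RPKM for the median protein_coding gene that passed the same level. Over the 6 libraries 17 members averaged 10 RPKM or more, 13 averaged 5 to 10, 46 averaged 2 to 5 and 53 averaged 1 to 2. The 5 most abundant members, Yam1, Snhg1, Malat1, Snhg18 and Snhg6, took 46.02% to 49.78% of member reads in EPZ6438 libraries and 46.37% to 47.99% in DMSO libraries. Just inside the level were A330069E16Rik, 9330179D12Rik and 1700096K18Rik, at 1.03, 1.03 and 1.04 RPKM, and just outside it were 1700007L15Rik, Gm26910 and Kantr, at 0.993, 0.993 and 0.988 RPKM.

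The biotype is that of the deposited table, and newer annotation sees some members otherwise. Of 97 members matched to a RefSeq gene (GRCm38.p6) by symbol and position, 85 are lncRNA there, 11 are protein_coding and 1, Gm5575, is a pseudogene. The 11 include 1810058I24Rik, C330006A16Rik (Tmem250-ps in RefSeq), Gm22 (Zfp469), D930016D06Rik (Thoc2l) and entries that carry the symbols Nav1 and Fam160a2. The Gm4790 entries and 6230415J03Rik are also among the 11 and match the same RefSeq gene, Gm33989, so they are not separate genes there. Of the 129 members, 24 overlapped a protein_coding gene and 10 another lincRNA gene. Whether counting used strand is not given in the sources used here, so reads of overlapping genes may be shared.

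Yam1 (ENSMUSG00000098178, chr17:39846958-39848788, mm10) was the most abundant member and lies where ribosomal RNA reads are often placed. It had 162.3, 196.8 and 227.2 RPKM in EPZ6438 libraries, against 138.4, 173.5 and 198.8 RPKM in DMSO libraries. The spread within each arm was as wide as the gap between them, and the log2 change was 0.20 ± 0.17 (SE; limma adjusted p = 0.554).

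The share of tested members that changed was close to that of all tested genes. Of the members 127 had at least 10 reads in at least 3 libraries and were tested; the other 2, CAAA01116243.1 and Gm29362, were not. At an adjusted p under 0.05 (limma, Benjamini-Hochberg over all 14213 genes tested), 8 of 127 were called (6.30%), where 7.04% of all tested genes were called. 5 rose, where 3.8% of all tested genes rose, and 3 fell, where 3.24% fell. Among protein_coding genes at 1 RPKM or more 7.05% were called, and among tested lincRNA genes below that level 3.55%, or 6 of 169. At an unadjusted p under 0.05 there were 32 members, 11 higher and 21 lower, which is 25.2% of those tested against 20.6% of all tested genes.

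The members lay slightly toward lower values. The median log2 change of RPKM + 0.1 was -0.08 for members and -0.03 for all tested genes, and 49 members were above 0 and 78 below, where 45.2% of all tested genes were above 0. In 42 members (33.1%) no EPZ6438 library overlapped a DMSO library, 13 higher and 29 lower, where 26.7% of all tested genes had such a gap. Changes ran from -1.30 to 0.71, and 3 members changed at least 2-fold, where 3.05% of all tested genes did. Among called lincRNA genes below the level, Gm11515 was at 2.47 ± 0.56 (SE), E330013P04Rik at 1.89 and Fam169b at -1.50, outside the range of the members. Gm11515 had 0, 0 and 0.337 RPKM in DMSO libraries and E330013P04Rik was at 0 in each, so their changes depend on the added 0.1 RPKM. The median standard error was 0.18 for members and 0.14 for all tested genes. It was 0.11 for members at 10 RPKM or more and 0.21 for those under 2 RPKM.

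**Figure D1:**
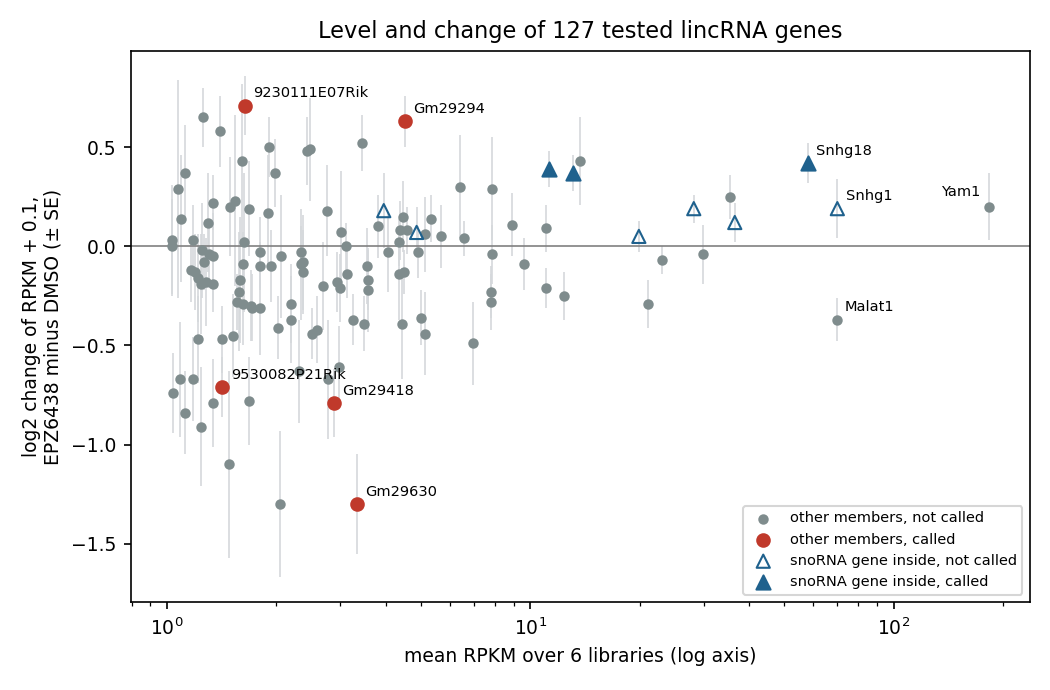
Mean level over 6 libraries (x axis, RPKM, log axis) and log2 change of RPKM + 0.1, EPZ6438 minus DMSO (y axis), of the 127 tested lincRNA genes; bars are standard errors, filled coloured symbols are called genes and triangles are genes with an annotated snoRNA gene inside. The 9 triangles all lie above 0, between 0.05 and 0.42, while the changes of the others run from -1.30 to 0.71.

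The number of calls changed with the library left out. With DMSO replicate 1, 2 or 3 left out, 4, 0 and 4 members were called, and with EPZ6438 replicate 1, 2 or 3 left out, 0, 1 and 1. Over all genes 1001 were called with every library and 323 to 978 with 1 left out. Snhg18, Snhg7, Gm29294 and Gm29418 were the 4 called without DMSO replicate 1. Gm29418 and Gm29630 were called without DMSO replicate 3, with Gm22 and Gm5575, and Gm29630 alone without EPZ6438 replicate 3. The member called without EPZ6438 replicate 2 was Gm27028, which is not among the 8. Where no member was called, 25 (without DMSO replicate 2) and 30 (without EPZ6438 replicate 1) had an unadjusted p under 0.05. Without the filter on low values limma called no member, with 27 at an unadjusted p under 0.05, and voom with the filter called 5. All 8 kept their direction with each library left out.

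3 of the 5 members that rose hold snoRNA genes. Snhg18 (ENSMUSG00000096956, chr15:32240569-32244662), the host of Snord123, had 72.1, 60.2 and 67.5 RPKM in EPZ6438 libraries, against 53.6, 49.7 and 45.9 RPKM in DMSO libraries. Every EPZ6438 library was above every DMSO library. The log2 change was 0.42 ± 0.10 (SE; limma adjusted p = 0.0475).

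Snhg7 (chr2:26637177-26640244), the host of Snora43 and Snora17, had 14.4, 14.7 and 15.4 RPKM in EPZ6438 libraries, against 11.9, 11.8 and 10.7 RPKM in DMSO libraries. Its arms did not overlap, and the log2 change was 0.37 ± 0.09 (SE; limma adjusted p = 0.0458). 2700038G22Rik (chr5:23850597-23854924), which holds Snord93, had 12.4, 12.5 and 13.4 RPKM in EPZ6438 libraries, against 10.0, 10.2 and 9.00 RPKM in DMSO libraries. It too was higher in all 3 EPZ6438 libraries, by 0.39 ± 0.09 (SE; limma adjusted p = 0.0487), close to the threshold. Its call held in 3 of 14 other settings and was lost, among others, at pseudocounts of 0.5 and 1 RPKM, with voom, without the filter and with each library left out.

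The other 2 that rose have no small RNA gene inside. Gm29294 (ENSMUSG00000100493, chr4:134741554-134743421) had 5.75, 5.30 and 5.45 RPKM in EPZ6438 libraries, against 3.10, 4.02 and 3.50 RPKM in DMSO libraries, and its log2 change was 0.63 with a limma adjusted p of 0.0309. The lowest EPZ6438 library lay above the highest DMSO library. 9230111E07Rik (ENSMUSG00000087624, chr2:167782053-167783486) had 2.05, 2.14 and 1.97 RPKM in EPZ6438 libraries, against 1.11, 1.44 and 1.12 RPKM in DMSO libraries, with a log2 change of 0.71 and a limma adjusted p of 0.0368. It overlaps Gm14321, another member, which had 1.78, 2.48 and 2.52 RPKM in EPZ6438 libraries against 1.62, 1.90 and 1.62 RPKM in DMSO libraries (log2 change 0.37, limma adjusted p = 0.289), so reads of the pair may be shared.

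The largest called fall was that of Gm29630 (ENSMUSG00000101549, chr1:132274716-132280411), a short gene of 359 exonic bases. It had 1.72, 1.38 and 2.64 RPKM in EPZ6438 libraries, against 5.76, 4.00 and 4.49 RPKM in DMSO libraries. The arms did not overlap and the log2 change was -1.30 (limma adjusted p = 0.0255). With as few as 12 reads in a library, it is also the called member with the least depth.

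Gm29418 (ENSMUSG00000100345, chr17:85796218-85824044) had 2.13, 1.98 and 2.08 RPKM in EPZ6438 libraries, against 4.68, 3.40 and 3.04 RPKM in DMSO libraries. Its EPZ6438 libraries lay close together and all below DMSO, with a log2 change of -0.79 (limma adjusted p = 0.0408). 9530082P21Rik (ENSMUSG00000097006, chr17:23743234-23754065) had 0.991, 0.967 and 1.22 RPKM in EPZ6438 libraries, against 1.70, 1.78 and 1.89 RPKM in DMSO libraries. It fell by 0.71 on the log2 scale (limma adjusted p = 0.0343), with no overlap between arms. It overlaps Kremen2, which encodes a receptor for the Wnt antagonist Dickkopf and was listed at 0 in all 6 libraries.

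**Figure D2:**
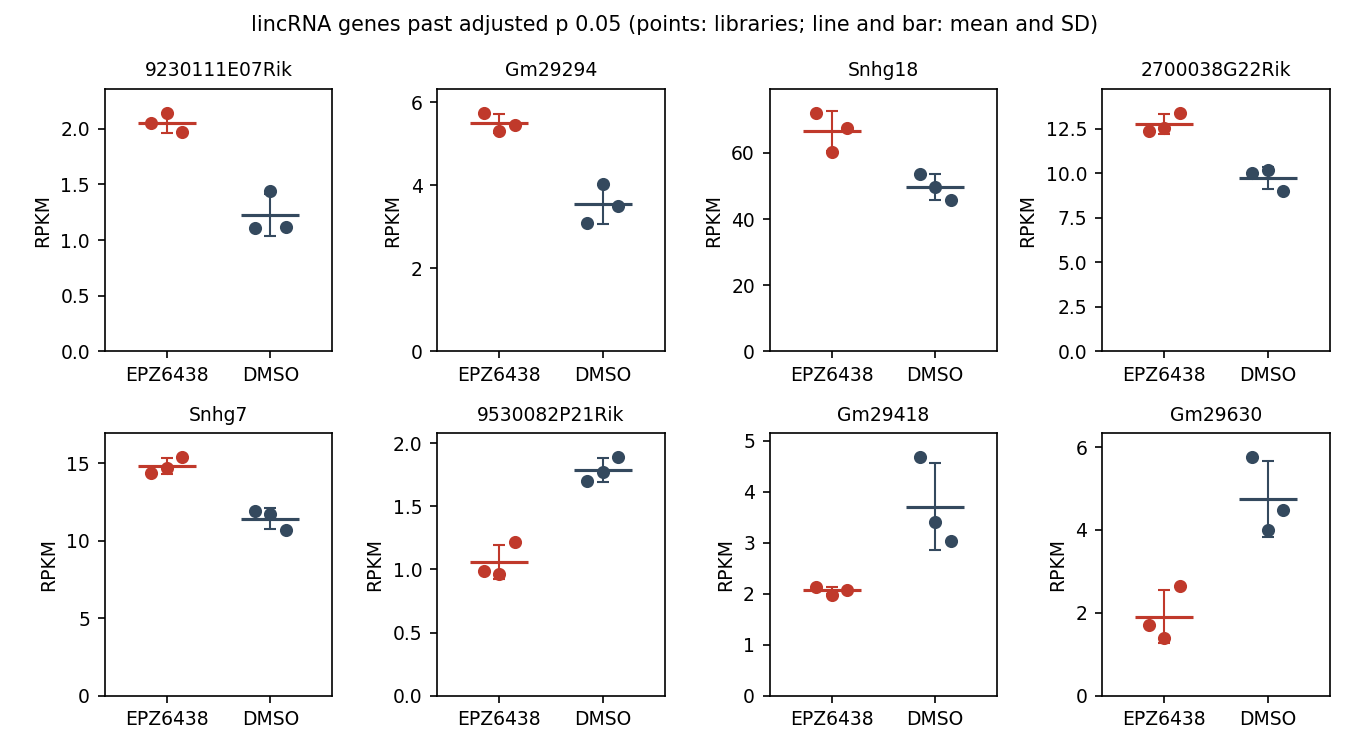
Level in RPKM (y axis, from 0) of the 8 called lincRNA genes in each of the 3 EPZ6438 libraries and 3 DMSO libraries; points are libraries, lines and bars the mean and SD. In each panel the 3 EPZ6438 points lie all above or all below the 3 DMSO points.

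The snoRNA hosts had log2 changes of the same sign. A snoRNA is cut from an intron of its host and guides the modification of other RNAs. The table counts reads over the counted length of each host. For Snhg1 (2947 bases) and 2810008D09Rik (2166 bases) that length is the whole span between the gene ends, with the snoRNA genes inside. Spliced host RNA cannot be told apart from other reads there. Many hosts belong to the terminal oligopyrimidine class of genes, whose transcripts begin with a run of C and T bases and whose translation follows growth signals. Of the members 9 hold an annotated snoRNA gene, and all 9 had a log2 change above 0, from 0.05 to 0.42, with a median of 0.19. These genes share their libraries and are not independent replicates, so the count of signs is a description across genes. 3 of these passed the test upward, where 3.8% of all tested genes did, and none downward. Snhg18 and Snhg7 alone passed at pseudocounts of 0.5 or 1 RPKM and with voom, and none without the filter on low values. Of the other 118 tested members 40 were above 0, and their median was -0.10. With EPZ6438 replicate 1 left out 8 of 9 were above 0, 2810008D09Rik (Snhg20 in RefSeq) being at -0.02, and in all other settings tried 9 of 9 were. With DMSO replicate 1 left out 2 of the 9 passed the test, and with any other library left out none did.

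The other 6 hosts did not pass the test. Snhg1, which holds 8 snoRNA genes, had 79.6, 67.4 and 75.7 RPKM in EPZ6438 libraries, against 79.8, 63.2 and 54.1 RPKM in DMSO libraries. The ranges overlapped, and the log2 change was 0.19 ± 0.15 (SE; limma adjusted p = 0.520). Snhg12 had 29.8, 30.4 and 29.8 RPKM in EPZ6438 libraries, against 25.3, 26.5 and 27.2 RPKM in DMSO libraries; it did not overlap between arms but missed the threshold at a log2 change of 0.19 (limma adjusted p = 0.180). Snhg6, 2410004N09Rik, 2810008D09Rik and 2900076A07Rik had log2 changes of 0.12, 0.05, 0.07 and 0.18.

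The wider list of snoRNA hosts of any biotype was also above 0 throughout. All 11 tested genes of the list, 5 of them members, had a log2 change above 0, with a median of 0.19, and 2 rose, Snhg7 and Snhg18. Gas5, the most abundant, had 146.4, 132.4 and 138.8 RPKM in EPZ6438 libraries, against 153.8, 124.0 and 118.6 RPKM in DMSO libraries. Its arms overlapped (log2 change 0.08, limma adjusted p = 0.730). Snhg5 and Snhg3 had the largest uncalled changes, at 0.33 and 0.28 (limma adjusted p = 0.251 and 0.269).

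The first 50 bases from the RefSeq start (GRCm38.p6) are shown for the 7 hosts with a RefSeq promoter entry. The start of the transcript is shown because it defines the terminal oligopyrimidine class, to which many hosts belong. Capitals mark a run of at least 5 C or T bases that begins within the first 5 bases.
Snhg18: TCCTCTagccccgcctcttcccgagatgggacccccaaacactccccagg
Snhg7: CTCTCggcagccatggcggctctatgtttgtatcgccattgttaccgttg
2700038G22Rik: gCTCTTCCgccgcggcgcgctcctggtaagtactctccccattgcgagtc
Snhg1: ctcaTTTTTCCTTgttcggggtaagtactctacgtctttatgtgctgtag
Snhg12: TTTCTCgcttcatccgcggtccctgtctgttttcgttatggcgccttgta
2900076A07Rik: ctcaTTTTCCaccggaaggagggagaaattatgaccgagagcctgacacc
2810008D09Rik: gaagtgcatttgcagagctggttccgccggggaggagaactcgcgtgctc
They lie at chr15:32244613-32244662 (minus strand) for Snhg18, chr2:26640195-26640244 (minus) for Snhg7, chr5:23850597-23850646 (plus) for 2700038G22Rik, chr19:8723487-8723536 (plus) for Snhg1, chr4:132308678-132308727 (plus) for Snhg12, chr7:81523550-81523599 (plus) for 2900076A07Rik and chr11:117076783-117076832 (plus) for 2810008D09Rik. Such a run was present in 6 of the 7, all but 2810008D09Rik. It began at base 1 in Snhg18, Snhg7 and Snhg12, at base 2 in 2700038G22Rik and at base 5 in Snhg1 and 2900076A07Rik. The rule is thus looser than a transcript that begins with the run, and whether these hosts belong to the class was not tested. Of 72 other members with a RefSeq promoter 8 had one, and of all 32851 RefSeq promoters 14.7%. The 3 hosts that rose and the uncalled Snhg1, Snhg12 and 2900076A07Rik all carry it, so the run does not separate called from uncalled hosts.

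Hosts of miRNAs did not share a direction. Of the members 6 hold a miRNA gene, and 2 of them had a log2 change above 0. Their changes ran from -1.10 to 0.58 with a median of -0.07, and none was called. Mir17hg (chr14:115042879-115046727), the host of the miR-17-92 cluster that acts on cell growth, had 1.706, 1.874 and 1.497 RPKM in EPZ6438 libraries, against 1.28, 0.891 and 1.14 RPKM in DMSO libraries. Its arms did not overlap and its log2 change was 0.58 ± 0.18 (SE), but its limma adjusted p of 0.105 missed the threshold. Of the list of miRNA hosts of any biotype 7 were tested, none rose and 1 fell: 2610203C20Rik, a processed_transcript gene, had 12.3, 9.08 and 10.4 RPKM in EPZ6438 libraries against 23.2, 20.3 and 16.6 RPKM in DMSO libraries (log2 change -0.91, limma adjusted p = 0.0179).

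The main mature miRNAs of the 6 hairpins inside Mir17hg are given to show which seed families its transcript can supply; the mature miRNAs themselves were not measured. Capitals mark the seed, bases 2 to 8, and the sequences are those of RefSeq.
mmu-miR-17-5p: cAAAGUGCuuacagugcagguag
mmu-miR-20a-5p: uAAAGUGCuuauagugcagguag
mmu-miR-18a-5p: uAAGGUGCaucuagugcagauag
mmu-miR-19a-3p: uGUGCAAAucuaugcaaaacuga
mmu-miR-19b-3p: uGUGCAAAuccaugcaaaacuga
mmu-miR-92a-3p: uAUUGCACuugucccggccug
miR-17-5p and miR-20a-5p share a seed, and so do miR-19a-3p and miR-19b-3p.

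No gene of the 4 other lists of studied noncoding RNAs passed the test. Malat1, an abundant nuclear RNA of speckles, had 64.4, 51.6 and 66.9 RPKM in EPZ6438 libraries, against 80.5, 79.6 and 74.9 RPKM in DMSO libraries. All 3 EPZ6438 libraries were lower, but at a log2 change of -0.37 ± 0.11 (SE) the limma adjusted p was 0.101. Neat1, the scaffold of paraspeckles and the neighbour of Malat1 at a gap of 22036 bp, had 6.84, 6.73 and 6.41 RPKM in EPZ6438 libraries, against 6.10, 6.53 and 6.77 RPKM in DMSO libraries. Its arms overlapped and its log2 change was 0.04 ± 0.09 (SE).

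Of the 5 tested genes of the nuclear and X-inactivation list 2 had a log2 change above 0. Xist was at or below 0.0223 RPKM in every library, and Ftx, a neighbour of Xist in the X-inactivation centre, changed by -0.30 (limma adjusted p = 0.429). Of 5 other studied genes tested 1 was above 0. 1700020I14Rik (known as Cyrano), Pvt1, the neighbour of Myc, and Crnde had log2 changes of -0.29, 0.05 and -0.25. All 3 tested imprinted noncoding genes and 1 of 4 tested genes at developmental loci were above 0.

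Fendrr, at the Foxf1 locus, had 2.99, 2.43 and 3.10 RPKM in EPZ6438 libraries, against 3.70, 3.71 and 3.64 RPKM in DMSO libraries. Its arms did not overlap, at a log2 change of -0.37 and a limma adjusted p of 0.158. Foxf1, a forkhead factor gene beside it that was singled out after its values were seen, fell by 0.40 on the log2 scale (limma adjusted p = 0.0406).

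The distance to the nearest protein_coding gene varied widely. It overlapped 24 members, lay within 2.5 kb of another 37 and was farther for 68, of which 20 were over 50 kb away. The overlapping genes include Gm20388, a long entry at chr8:119910841-124345722, which was taken as nearest to Fendrr and Gm22. Foxf1 beside Fendrr is therefore not among the nearest genes. The median gap was 3479 bp. Of 122 distinct nearest genes 100 were tested and 12 were called (12%), 7 higher and 5 lower, where 7.04% of all tested genes were called. With a library left out the number was 3 to 10, the lowest without DMSO replicate 2 or any EPZ6438 replicate.

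Over the 104 pairs in which both genes were tested, the log2 changes of member and neighbour correlated at r = 0.32 (rho = 0.29), and 63 pairs had the same sign. Pairs share their libraries, and overlapping genes may share reads. Over the 85 pairs without overlap r was 0.31, and 0.27 without Snhg18. Genes are not independent replicates, and the coefficients are descriptions across genes.

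**Figure D3:**
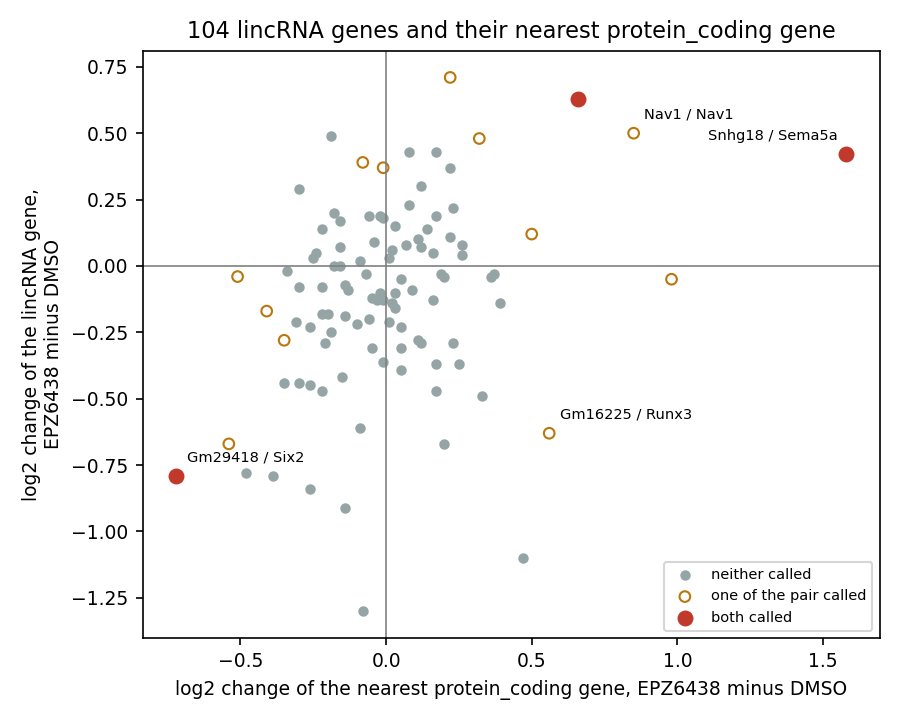
Log2 change of 104 lincRNA genes (y axis) and of the nearest protein_coding gene of each (x axis), both EPZ6438 minus DMSO on log2(RPKM + 0.1); filled red points are pairs in which both genes were called and open points pairs in which 1 was. The 3 pairs with both called lie in the quadrants of equal sign, and Gm16225 lies opposite in sign to Runx3.

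Both genes were called in 3 pairs, each in the same direction, and 2 of the pairs are described here. The pair with the largest change was Snhg18 and Sema5a, which encodes a transmembrane semaphorin that guides axons. Sema5a had 0.642, 0.533 and 0.605 RPKM in EPZ6438 libraries, against 0.153, 0.137 and 0.106 RPKM in DMSO libraries. It averaged 0.593 ± 0.0556 RPKM in EPZ6438 libraries and 0.132 ± 0.0238 RPKM in DMSO libraries (SD, n = 3 each). Its log2 change was 1.58 ± 0.18 (SE; limma adjusted p = 0.00351), and it was called in every setting tried.

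The RefSeq start of Sema5a lies 151 bp from that of Snhg18, on the opposite strand. The EPZ6438 list has 2 H3K4me3 peaks at Snhg18, chr15:32243441-32243731 and chr15:32244217-32244696, and the DMSO list has none within 2.5 kb of either end. Neither H3K27me3 list has a peak within 2.5 kb of either end of Snhg18. In the range mapped around the starts of both genes, the only H3K27me3 peak is in the DMSO list. It is 440 bp wide, at chr15:32250450-32250889, inside Sema5a but more than 2.5 kb from its start. Sema5a spans chr15:32244813-32696341, and peaks in the rest of it are not described here. Whether this peak has a part in the change of Sema5a was not tested. The RefSeq promoter of Snhg18 (chr15:32244613-32244912, minus strand, GRCm38.p6), 250 bases before its start and 50 after, is shown because it spans the starts of both genes. Capitals mark the 84 of 300 bases inside the H3K4me3 peak of the EPZ6438 list.
Snhg18 promoter: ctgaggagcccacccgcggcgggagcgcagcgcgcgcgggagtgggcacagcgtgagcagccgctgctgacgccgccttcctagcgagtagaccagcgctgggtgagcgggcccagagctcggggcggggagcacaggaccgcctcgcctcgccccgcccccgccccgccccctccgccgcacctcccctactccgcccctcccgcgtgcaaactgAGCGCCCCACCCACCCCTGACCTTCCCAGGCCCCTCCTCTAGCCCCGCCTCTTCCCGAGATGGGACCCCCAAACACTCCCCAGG
It holds 31 CpG dinucleotides, against a median of 7 over all RefSeq promoters of this length.

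**Figure D4:**
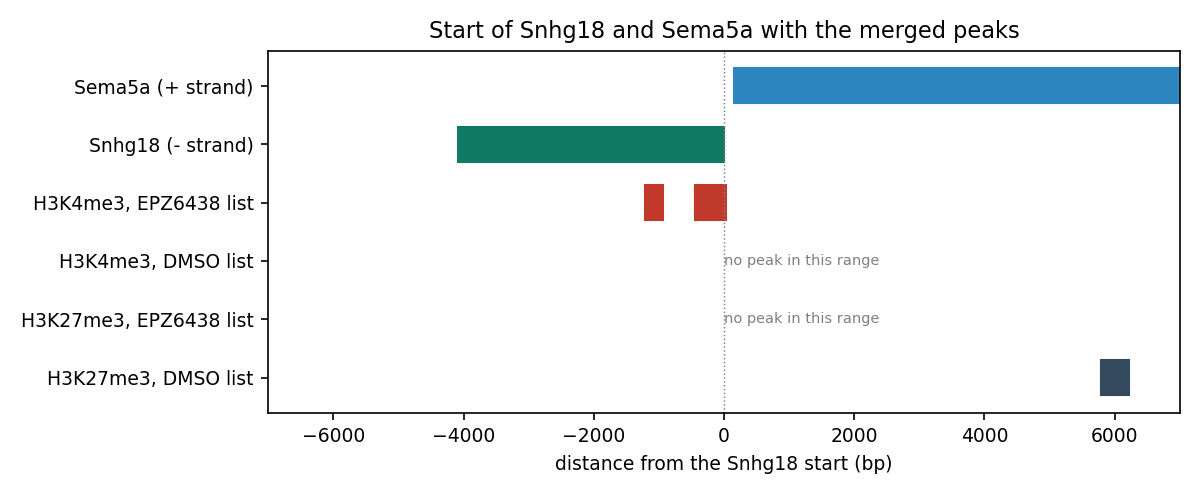
Map of the starts of Snhg18 and Sema5a with the peaks of the 4 merged lists, by distance from the Snhg18 start in bp (x axis; positive values run into Sema5a). The H3K4me3 list of EPZ6438 has 2 peaks at Snhg18 and the list of DMSO none in this range. The only H3K27me3 peak in this range, 440 bp wide, is in the DMSO list. The map does not cover the rest of Sema5a.

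Another pair was Gm29418 and Six2, a homeobox gene of skeletal and kidney progenitors, 107944 bp apart. Six2 had 18.04, 17.59 and 19.03 RPKM in EPZ6438 libraries, against 28.9, 29.9 and 31.1 RPKM in DMSO libraries, a log2 change of -0.72 (limma adjusted p = 0.00252) that was called in every setting tried. Both genes of a pair were called in 3 pairs without DMSO replicate 1, in 1 without DMSO replicate 3 and in none without any other library.

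The nearest genes of Snhg7, 2700038G22Rik and 9230111E07Rik were not called. Fam69b beside Snhg7, Tomm7, a mitochondrial import subunit gene beside 2700038G22Rik, and Cebpb, a leucine zipper factor gene 91635 bp from 9230111E07Rik, had log2 changes of -0.01, -0.08 and 0.22. The sign of Fam69b and of Cebpb differed between settings, Fam69b being at 0.02 under median-of-ratios scaling. Lemd1, nearest to Gm29630, was not tested.

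The remaining 9 called neighbours were nearest to members that were not called; those named here were chosen after their values were seen. Runx3, a runt factor gene active in cartilage and bone, had 10.0, 9.98 and 10.9 RPKM in EPZ6438 libraries, against 6.98, 7.34 and 6.59 RPKM in DMSO libraries (log2 change 0.56, limma adjusted p = 0.0153). Gm16225, which starts 269 bp away on the opposite strand, had 2.06, 1.20 and 2.16 RPKM in EPZ6438 libraries, against 3.07, 2.11 and 3.27 RPKM in DMSO libraries. Its arms overlapped at a log2 change of -0.63 (limma adjusted p = 0.234), opposite in sign to Runx3.

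Nav1, a cytoskeletal protein gene, rose by 0.85 on the log2 scale (limma adjusted p = 0.00564), and the lincRNA entry with the same symbol changed by 0.50 (limma adjusted p = 0.112). That entry overlaps the protein_coding gene and is protein_coding Nav1 in RefSeq, so the pair may be parts of the same gene. Ak4 (0.98), 62542 bp from E130102H24Rik, and Cdkn1b (-0.51) beside 1190002F15Rik were called, while these members changed by -0.05 and -0.04. Cdkn1b encodes the cell cycle inhibitor p27.

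Of the 79 members with a RefSeq promoter 15 (18.99%) start within 1 kb of a protein_coding start on the opposite strand. Of these 14 had an H3K4me3 peak in the EPZ6438 list and 10 in the DMSO list, and of the 64 others 39 and 32. Only Gm16225 of the 15 had no H3K4me3 peak in either list. Of the partners of the 15, Sema5a and Runx3 were called, where 7.04% of all tested genes were called.

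The share of members with a peak was below that of expressed protein_coding genes in each list, a difference that was not tested. H3K27me3 peaks within 2.5 kb of either gene end were found at 0 members in the EPZ6438 list and 12 (9.30%) in the DMSO list, where 0.977% and 16% of protein_coding genes at 1 RPKM or more had one. Among lincRNA genes below 1 RPKM the shares were 7.88% and 32.3%. H3K4me3 peaks were found at 72 members (55.8%) in the EPZ6438 list and 61 (47.3%) in the DMSO list, where 81% and 65.9% of the protein_coding genes had one. Below 1 RPKM 12.2% and 16.2% of lincRNA genes had one.

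The lists differ in size and width, so their counts do not show a change of the marks by themselves. The H3K27me3 lists hold 20764 peaks over 11.6 Mb in EPZ6438 and 143399 peaks over 89.4 Mb in DMSO. The H3K4me3 lists hold 16216 peaks with a median width of 401 bp in EPZ6438 and 40113 with a median of 212 bp in DMSO. With peaks of at least 400 bp alone, 56 members had H3K4me3 in the EPZ6438 list and 27 in the DMSO list.

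**Figure D5:**
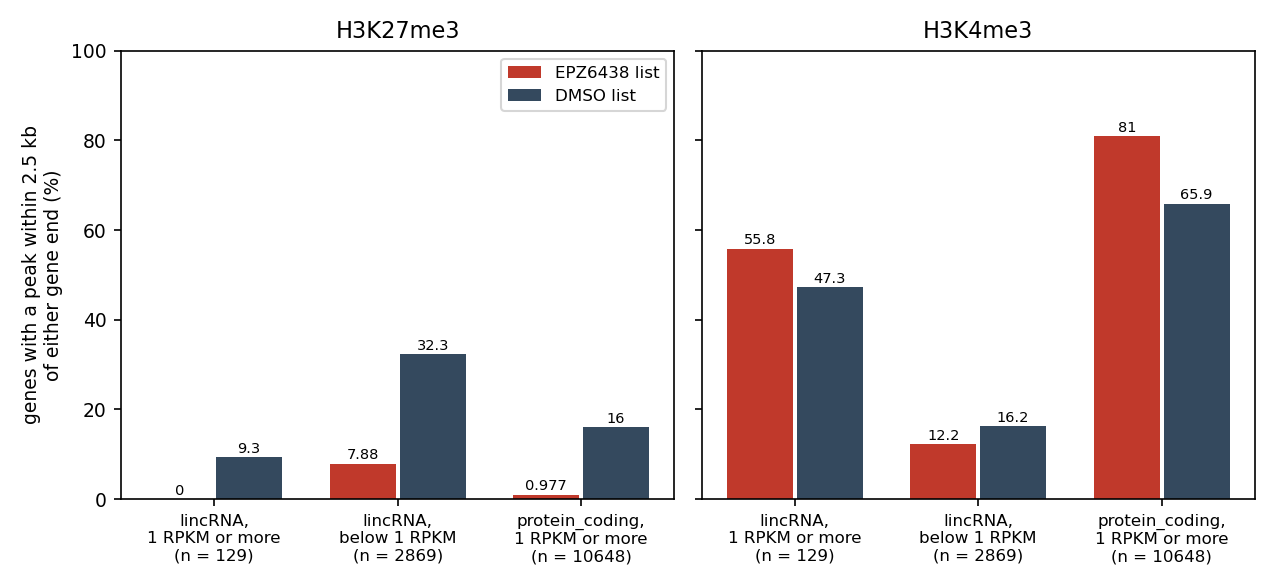
Share of genes (y axis, percent) with an H3K27me3 peak (left) or H3K4me3 peak (right) within 2.5 kb of either gene end, in the merged EPZ6438 and DMSO lists, for lincRNA genes at or above and below 1 RPKM and for protein_coding genes at 1 RPKM or more. The members had no H3K27me3 peak in the EPZ6438 list and 9.30% in the DMSO list, and the H3K4me3 bars of members, 55.8% and 47.3%, lie between those of the other sets.

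The 12 members with H3K27me3 in the DMSO list were Snhg1, 2410004N09Rik, Pvt1, 2310008N11Rik, 1810044D09Rik, A830019P07Rik, Gm5575, Gm11884, 1300002E11Rik, 9530082P21Rik, 1700096K18Rik and 9330179D12Rik. None of them rose, 1 fell, where 3.24% of all tested genes fell, and 4 had a log2 change above 0, where 45.2% of all tested genes did. Their median log2 change was -0.21. The fallen gene was 9530082P21Rik, whose peak at chr17:23745336-23746403 was the widest of the 14, at 1068 bp. That peak lies inside 9530082P21Rik, 2102 bp from its nearer end. It also overlaps the higher-coordinate end of Kremen2 (chr17:23741200-23745829). Kremen2 was listed at 0 in all 6 libraries. The peak cannot be given to either gene alone. At 2 of the 12 members the peak was also at the nearest protein_coding gene. The median width of the 14 was 298 bp, and they lay 603 to 2396 bp from the nearer gene end. The number depends on the window: 1 member had such a peak within 1 kb and 28 within 5 kb. In the EPZ6438 list 2 had one within 5 kb, and 3 when gene bodies were counted.

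Gm5575, with 2 of these peaks, had 1.31, 0.831 and 1.13 RPKM in EPZ6438 libraries, against 3.73, 3.84 and 1.48 RPKM in DMSO libraries. The third DMSO library lay near the EPZ6438 libraries, and the log2 change of -1.30 missed the threshold (limma adjusted p = 0.0885). 1810044D09Rik had 2.73, 2.98 and 2.77 RPKM in EPZ6438 libraries, against 1.64, 1.94 and 2.51 RPKM in DMSO libraries, the largest positive change of the 12 at 0.48 (limma adjusted p = 0.167). 6 of the 12 also had an H3K4me3 peak in the DMSO list.

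H3K4me3 was in both lists at 57 members, in the EPZ6438 list alone at 15, in the DMSO list alone at 4 and in neither at 53. The shared members are 79.2% of those in the EPZ6438 list and 93.4% of those in the DMSO list. The median level was 3.02 RPKM for members with the mark in both lists and 2.02 RPKM for those with it in neither. Of the 8 called members 5 had no H3K4me3 peak in either list, Snhg7 and 2700038G22Rik had it in both, and Snhg18 had it in the EPZ6438 list alone. The 15 with a peak in the EPZ6438 list alone had a median log2 change of -0.10, and 7 were above 0.

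Promoter CpG content and the distance to a coding gene are given beside H3K4me3 as descriptions. The RefSeq promoters of members with the mark in either list had a median of 23 CpG in 300 bases (n = 55), those without it 6.5 (n = 24) and all RefSeq promoters 7. Of members with a protein_coding gene overlapping or within 2.5 kb 70.5% had an H3K4me3 peak in the EPZ6438 list and 62.3% in the DMSO list. Of those farther away 42.7% and 33.8% had one. In 36 of the 72 members of the EPZ6438 list and 33 of the 61 of the DMSO list, a peak at the member was also at the nearest protein_coding gene, so it cannot be given to either gene alone.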

How the data were processed

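RNA was sequenced in 3 EPZ6438 and 3 DMSO samples, with libraries from an mRNA kit per the labels' protocols. Per the file headers the authors deposited RPKM for 43346 genes, with positions and no strand. The other values deposited by the authors are starts and ends of merged peaks with no score, 1 list per mark and arm. Per the submitters' processing notes, the tools were DiffBind, HOMER, MACS2, Picard, Subread and STAR 2.6.1c, named without roles, on build mm10. No annotation release or caller threshold is given in the sources used here.

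Multiplying RPKM by gene length plus 1 base gave whole reads for 100% of values (tolerance 0.001), with 18807156 to 25365513 reads per library; 3 reads are 0.118 to 0.160 CPM, and such floors cover counting error only. Genes with at least 10 such reads in 3 libraries were tested with limma 3.58.1 (R 4.3.3; trend, empirical Bayes, 2 sides) on log2(RPKM + 0.1), which understates changes of low genes, with Benjamini-Hochberg adjustment over 14213 genes. The test was tried on simulated data. Peaks were assigned by 1 bp of overlap with 2.5 kb to each side of either gene end. Sequences, strands and starts are those of RefSeq (GRCm38.p6), which has promoters for 79 members. Python 3.11.15 and pandas 2.3.3 were used.

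Named were called members and their nearest protein_coding genes, the 10 most abundant members, 3 on each side of the level, members with the widest H3K27me3 peaks and members of 6 lists of studied noncoding genes; other names are marked in the text or were chosen after their values were seen. Members and lists were chosen with earlier results of these data known. The result of 1 neighbouring gene is not reported here.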

Additional observations from a re-analysis of the deposited data

How the results depend on the processing

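Without the filter on low values 628 genes and 0 members were called (0 higher, 0 lower), with 6 nearest genes, 0 pairs with both genes called and 0 snoRNA-holding members. With voom on the recovered reads 5 members were called, 3 of them higher. The column headers carry the same replicate numbers in both arms. Deviations of same-numbered samples correlated at 0.41, 0.078 and 0.056 between arms, and EPZ6438 replicate 2 correlated best with DMSO replicate 3 (0.331). The numbers were not taken as pairs, but with 3 samples per arm this check cannot exclude a pairing. The replicate block gave 7 members, 3 of them higher, and 1 snoRNA-holding member, a count chosen after seeing the data. At an unadjusted p under 0.05 (limma) the block gave 40 members, against 32 in the main fit. With members at 0.5 RPKM or more, which is a larger set of genes, 5 fell, where 3.24% of all tested genes fell.

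With each library left out in turn, 323 to 978 genes were called, with 0 to 4 members (0 to 3 higher, 0 to 3 lower), 3 to 10 nearest genes, 0 to 3 pairs and 0 to 2 snoRNA-holding members. The cause was not tested.

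A 5 kb window gave 2 members with H3K27me3 in the EPZ6438 list and 28 in the DMSO list, a 1 kb window 1 in the DMSO list, and gene bodies 3 in the EPZ6438 list. Peaks of at least 400 bp left 6 with H3K27me3 and 27 with H3K4me3 in the DMSO list.

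Of single genes, 545 values under other settings kept their direction and side of the threshold, 61 lost the threshold, 1 gained it and 19 changed sign, all 19 in genes that were not called. Under median-of-ratios scaling Fam69b was at 0.02 and 9330179D12Rik at 0.03 (and at 0.03 with voom). With a library left out the ranges that crossed 0 were -0.30 to 0.32 for Fam69b, -0.06 to 0.62 for Cebpb, -0.02 to 0.14 for 2810008D09Rik, -0.08 to 0.19 for Pvt1, -0.17 to 0.24 for 9330179D12Rik, -0.11 to 0.11 for 1700007L15Rik, -0.52 to 0.08 for Gm26910, -0.24 to 0.19 for A330069E16Rik, -0.14 to 0.10 for 1190002F15Rik and -0.26 to 0.01 for 2310008N11Rik.

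Low members limit what depth can show, since the median member's lowest library held 62 reads.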
